A study of Homo sapiens with 4 samples.

Results

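ISG15 is a ubiquitin-like protein that interferon-treated cells attach to other proteins, and 5 further genes encode the enzymes that attach it and take it off. These 6 genes, ISG15, UBA7, UBE2L6, HERC5, HERC6 and USP18, were chosen by their symbols from the 27629 Ensembl identifiers listed in the tables, with earlier results of these data known, so their values are given as a description. RNA-seq was performed on UM-UC-3 cells, a human bladder cancer line, collected 48 h after siRNA had been transfected at 75 nM. There was 1 library for each of 4 conditions: control siRNA, si-hnRNPK, si-PTBP1 and a library labelled si-lncRNA-LBCS. In each library other than control the cells had received a pair of siRNAs against the named target. Because each condition is 1 library, differences could not be set against the spread of replicate cultures, and no p-value is given.

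The pathway works like ubiquitination. UBA7 is the E1 enzyme that activates ISG15, UBE2L6 is the E2 enzyme that carries it, and HERC5 is the main human E3 ligase that transfers it to target proteins, many of them newly made. HERC6 is the neighbouring paralog of HERC5 and the main ISG15 ligase in mouse. USP18 is the protease that removes ISG15 from its targets, and independently of that activity it binds the interferon receptor and dampens its signalling. All 6 are known interferon-stimulated genes, induced through the transcription factor complex ISGF3.

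Values are counts per 1000000 reads (CPM), each a whole number of reads scaled by the authors to that total. The reads on listed genes were between 54301152 and 70232674 per library, so 3 reads, the upper limit that a count of 0 allows, corresponded to 0.0427 to 0.0552 CPM. HNRNPK was at 24.0% of its control level in si-hnRNPK and PTBP1 at 32.0% in si-PTBP1. AL022068.1, to which the siRNAs of the si-lncRNA-LBCS label correspond, had 103 reads there and 110 in control (81.8% of the control CPM). It had 186 reads in si-hnRNPK and 214 in si-PTBP1, at 191% and 213% of the control CPM. No counting interval was calculated for it, so these reads do not settle whether the target was lowered at the level of that gene. Of 12 epithelial and urothelial markers, 3 (KRT7, KRT8 and KRT18) were at 1 CPM or more in each library. The urothelial factor GATA3 was below 1 CPM in all 4, at 0.321 CPM or less, while the mesenchymal marker VIM was at 1417 to 2343 CPM.

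The siRNAs of the library in which the 6 genes were highest, and the control siRNA, are shown as given in the labels, with the bases that match an siRNA seed site (those that pair with guide bases 2 to 8) in capitals.
si-hnRNPK siRNA-1: ggguuguagagUGCAUAAatt
si-hnRNPK siRNA-2: gccuccaucuaGAAGAGAutt
control siRNA: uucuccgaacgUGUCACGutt
Neither si-hnRNPK sequence had a full match of its 19 paired bases in a transcript of the 6 genes. The longest coding transcript of HERC6 held 3 seed sites of siRNA-1 and 2 of siRNA-2. Those of UBA7 and USP18 each held 1 site of siRNA-2, and those of ISG15, UBE2L6 and HERC5 held 0 sites of either. The control siRNA had 1 seed site among the 6 genes, in UBE2L6. HERC6, the gene with the most such sites and the longest of these transcripts (3781 bases), was higher in si-hnRNPK than in control. Any effect of the seed sites was not tested.

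The stretches before the RefSeq start sites of ISG15 and HERC5 are shown because both hold copies of GAAA, any 2 bases and GAAA, the core of the interferon-stimulated response element that ISGF3 binds, and because the 2 genes differ most in their change. Capitals mark the copies, read on either strand, which overlap in part. Both stretches are on the plus strand of GRCh38.p14 and contain no annotated exon.
ISG15, chr1:1013347-1013416: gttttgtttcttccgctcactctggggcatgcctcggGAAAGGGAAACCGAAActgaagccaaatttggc
HERC5, chr4:88456969-88457068: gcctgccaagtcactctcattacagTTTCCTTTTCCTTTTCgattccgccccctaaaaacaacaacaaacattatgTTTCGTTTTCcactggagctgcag
The ISG15 copies lie at -113 and -107 from the start site, overlapping by 4 bases. The HERC5 copies are on the opposite strand, at -125, -119 and -74. Promoter sequences from 250 bases before to 50 bases after a RefSeq start were matched for 4 of the 6 genes, and no copy was found in the windows of HERC6 or UBE2L6. At least 1 copy was present for 4.38% of the 27305 genes with such a window. The share was 3.95% among the 10106 of them expressed in control or si-hnRNPK, and 16.4% among the 330 of them that rose in si-hnRNPK. The letters TTC, any 3 bases and GAA, the gamma-activated site of interferon gamma signalling, are their own reverse complement. They were found for 9.38% of genes and for 0 of these 4, a count near that share. Their share was 8.67% among the expressed genes and 15.2% among those that rose in si-hnRNPK. Any part of either motif in the changes was not tested.

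Changes were calculated as differences in log2(CPM + 1), and a gene was counted as having risen or fallen at a difference of at least 1. The added 1 makes the changes of low genes look smaller. Ranges in parentheses are 95% intervals for the reads (exact, Clopper-Pearson) and cover counting error only. The question for these genes was whether the system as a whole, or single components, moved when hnRNPK, PTBP1 or the lncRNA was targeted. In si-hnRNPK, 5 of the 6 genes rose against control and 0 fell, where 3.55% of the 13672 genes tested rose and 3.93% fell. HERC5 was the gene that did not reach the threshold. Neither of the other libraries had a member past the threshold in either direction, where 0.378% of 13492 genes rose and 1.01% fell in the one labelled si-lncRNA-LBCS, and 2.92% of 13855 rose and 0.613% fell in si-PTBP1.

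**Figure D1:**
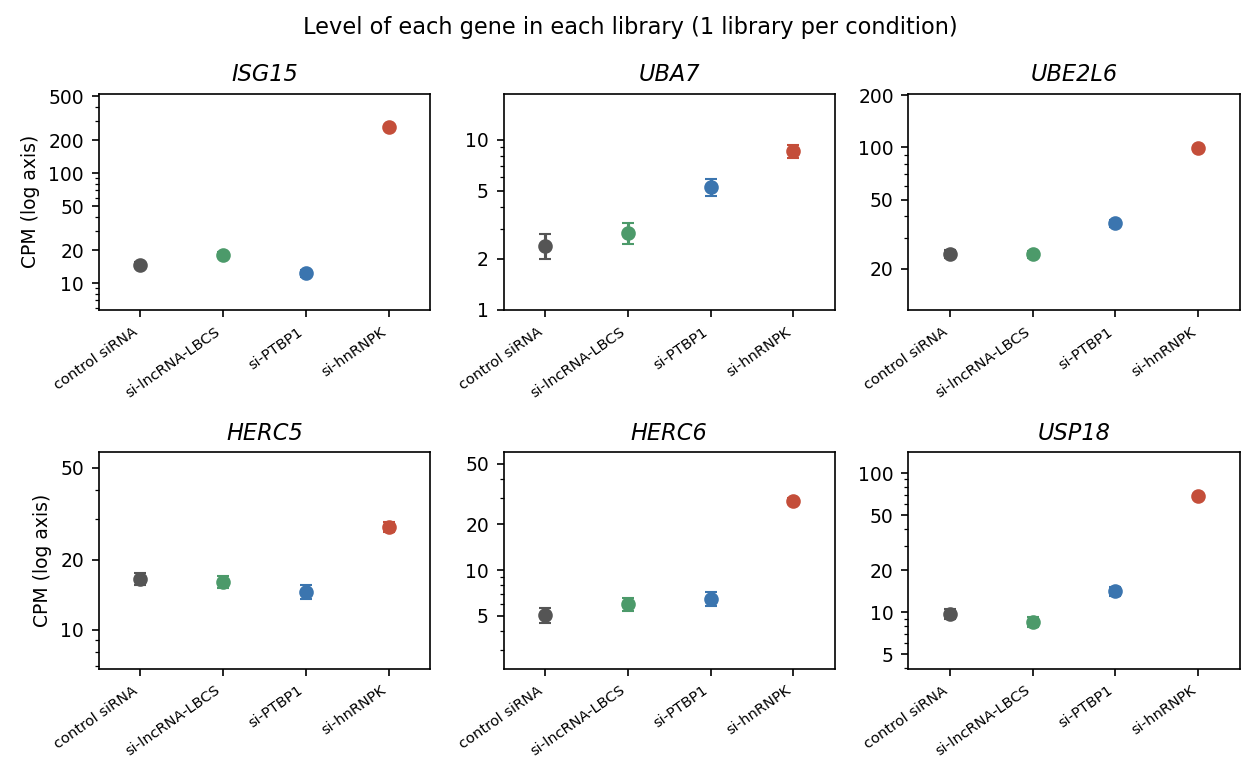
CPM of each gene (log axis, its own range in each panel) in the 4 libraries, 1 point per library, with bars for the 95% counting interval of the reads. The si-hnRNPK point is the highest in every panel, and UBA7, UBE2L6, HERC6 and USP18 are next highest in si-PTBP1, for HERC6 within counting error of the library labelled si-lncRNA-LBCS.

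ISG15 (ENSG00000187608, chromosome 1 of GRCh38, 1001138 to 1014540, plus strand) encodes the modifier itself. It was at 14.6 CPM in control, 18.3 CPM in that labelled si-lncRNA-LBCS, 12.3 CPM in si-PTBP1 and 262 CPM in si-hnRNPK, from 899, 1286, 691 and 14203 reads. The si-hnRNPK library stood far above the other three, and each neighbouring pair in the order of levels differed beyond counting error. The log2 change in si-hnRNPK was 4.07 (3.98 to 4.16), or 17.9 times the control CPM (16.7 to 19.1). This was the fifth highest change of the 13672 genes. An exon of an antisense transcript, AL645608.3, overlaps 36 bases of the ISG15 exons, and it had at most 8 reads in any library.

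UBA7 (ENSG00000182179, chromosome 3, 49805207 to 49813946, minus strand) encodes the activating enzyme. Its level was 2.36 CPM in control, 2.82 CPM in that labelled si-lncRNA-LBCS, 5.26 CPM in si-PTBP1 and 8.53 CPM in si-hnRNPK, from 145, 198, 295 and 463 reads. The first 2 libraries did not differ beyond counting error (1.19 times, 0.958 to 1.49), while si-PTBP1 lay between them and si-hnRNPK. The log2 change in si-hnRNPK was 1.5 (1.30 to 1.71), or 3.61 times the control CPM (2.99 to 4.38). A microRNA gene, MIR5193, overlaps 109 bases of the UBA7 exons on the same strand. In si-PTBP1 UBA7 was at 2.23 times the control CPM (1.82 to 2.74), a log2 difference of 0.90 that is under the threshold with a pseudocount of 1 and over it, at 1.12, with 0.1.

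UBE2L6 (ENSG00000156587, chromosome 11, 57551656 to 57568284, minus strand) encodes the conjugating enzyme. It was at 24.3 CPM in control, 24.2 CPM in that labelled si-lncRNA-LBCS, 36.5 CPM in si-PTBP1 and 99.4 CPM in si-hnRNPK. The first 2 values could not be told apart by counting error (0.995 times, 0.928 to 1.07), and the other 2 were higher. The log2 change in si-hnRNPK was 1.99 (1.91 to 2.07). The log2 difference of si-PTBP1 from control was 0.56, outside counting error and under the threshold.

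HERC5 and HERC6 lie side by side on the plus strand of chromosome 4. HERC5 (ENSG00000138646, 88457117 to 88506163) was at 16.6 CPM in control, 16.1 CPM in that labelled si-lncRNA-LBCS, 14.6 CPM in si-PTBP1 and 27.8 CPM in si-hnRNPK, from 1017, 1129, 816 and 1510 reads. Its si-hnRNPK value was the highest, at 1.68 times control (1.55 to 1.82), a log2 difference of 0.71 (0.60 to 0.82) that is outside counting error and under the threshold. HERC6 (ENSG00000138642, 88378739 to 88443111) was at 5.03 CPM in control, 5.95 CPM in that labelled si-lncRNA-LBCS, 6.44 CPM in si-PTBP1 and 28.5 CPM in si-hnRNPK. The si-PTBP1 library and the one labelled si-lncRNA-LBCS did not differ beyond counting error for HERC6 (1.08 times, 0.937 to 1.25). The log2 change of HERC6 in si-hnRNPK was 2.29 (2.13 to 2.44), or 5.65 times control.

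The balance between the paralogs differed between libraries. HERC6 took 23.3% (21.1 to 25.7) of the reads of the pair in control, 27.0% (24.8 to 29.3) in that labelled si-lncRNA-LBCS and 30.7% (28.0 to 33.4) in si-PTBP1. It took 50.6% (48.8 to 52.4) in si-hnRNPK. The next paralog, HERC3, which lies nearby and is not known as an ISG15 ligase, was at 6.55 CPM in control and 4.40 CPM in si-hnRNPK, a difference of -0.48. The large HERC proteins HERC1 and HERC2 also stayed under the threshold, at -0.20 and -0.52. HERC4 was at 107 CPM in control and 177 CPM in si-hnRNPK, a difference of 0.73 that is close to that of HERC5.

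USP18 (ENSG00000184979, chromosome 22, 18149899 to 18177397, plus strand) encodes the ISG15 protease. It was at 9.78 CPM in control, 8.57 CPM in that labelled si-lncRNA-LBCS, 14.2 CPM in si-PTBP1 and 68.6 CPM in si-hnRNPK, from 600, 602, 794 and 3724 reads. Each neighbouring pair in this order of levels differed beyond counting error. The log2 change in si-hnRNPK was 2.69 (2.58 to 2.81), or 7.01 times control, second to ISG15 among the 6 genes. In si-PTBP1 it was at 1.45 times control (1.30 to 1.61). Of the 100-base stretches of the USP18 transcript, 15.4% also occur in USP41, a near copy on the same chromosome whose reads were not analysed here, so reads from those stretches are uncertain. The other 5 genes share no such stretch with another annotated gene.

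**Figure D2:**
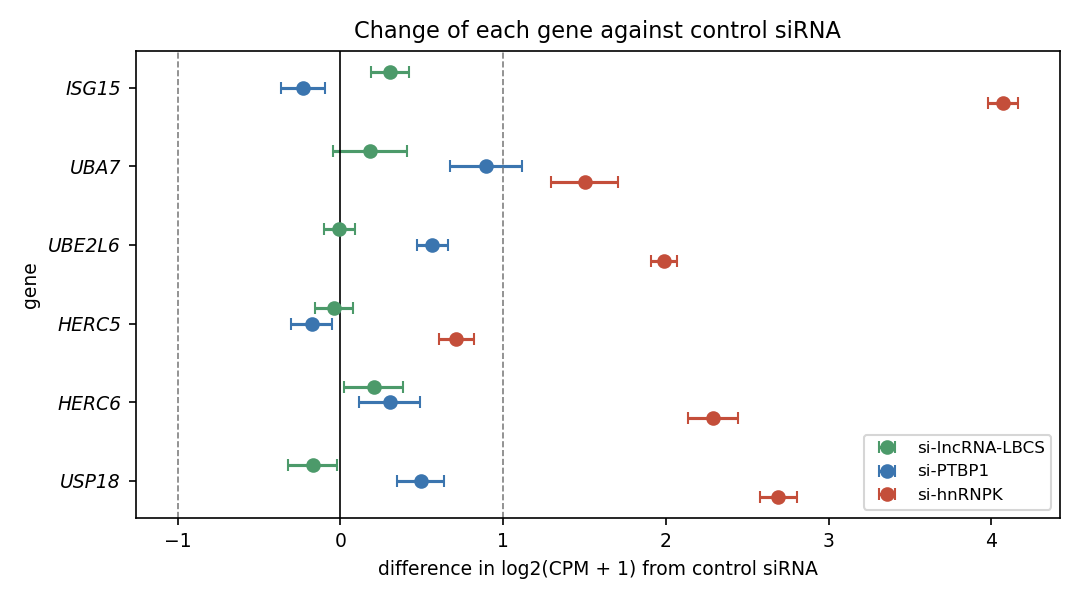
Difference in log2(CPM + 1) from control for each gene (horizontal axis) in the 3 libraries given targeting siRNAs, with 95% counting intervals, and dashed lines at the thresholds of -1 and 1. In si-hnRNPK the points run from 0.71 for HERC5 to 4.07 for ISG15, while the other libraries stay between -0.23 and 0.90.

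The median change of the 6 genes in si-hnRNPK was 2.14, against -0.11 over all genes tested. It was 0.40 in si-PTBP1, against 0.12, and 0.09 in that labelled si-lncRNA-LBCS, against -0.01. The 3 comparisons share the control library. The si-hnRNPK library was also set against the other siRNA libraries, comparisons that share it with the one against control. Compared with the library labelled si-lncRNA-LBCS, 5 of the 6 genes were higher by at least 1, where 3.10% of all genes were, and the differences ran from 0.75 for HERC5 to 3.77 for ISG15. Compared with si-PTBP1, 4 of the 6 were higher by at least 1, where 2.37% of all genes were. UBA7, at 0.61, and HERC5, at 0.89, were the others, the median was 1.70, and with median-of-ratios scaling, which sets the median ratio between libraries to equal, the count was 5.

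By the median-of-ratios method over 12362 genes, the factor of si-hnRNPK differed from that of control by -0.11 on the log2 scale and that of si-PTBP1 by 0.13. With this scaling the changes in si-hnRNPK ran from 0.82 for HERC5 to 4.18 for ISG15. In si-PTBP1 the differences of UBA7, UBE2L6 and USP18 were 0.79, 0.44 and 0.37, so these 3 genes kept a level above control.

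To compare the genes with each other, CPM was divided by the length of the longest coding transcript in kb. The intervals cover reads only. Which transcripts were present was not measured, so an error in the length is not in them and could alter the order. In control the order was ISG15 at 18.6 CPM per kb, UBE2L6 at 15.5, HERC5 at 4.72, USP18 at 4.59, HERC6 at 1.33 and UBA7 at 0.716. HERC5 and USP18 overlapped in their counting intervals there. In si-hnRNPK the modifier was at 332 CPM per kb, UBE2L6 at 63.2, USP18 at 32.2, HERC5 at 7.92, HERC6 at 7.52 and UBA7 at 2.58. The activating enzyme was thus the lowest in both, and the HERC5 and HERC6 intervals overlapped in si-hnRNPK. In si-PTBP1 UBE2L6, at 23.2 CPM per kb, stood above ISG15, at 15.7.

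The levels of the modifier and its protease did not keep one ratio. There were 0.667 USP18 reads per ISG15 read in control (0.601 to 0.741), 0.468 in that labelled si-lncRNA-LBCS (0.424 to 0.516), 1.15 in si-PTBP1 (1.04 to 1.27) and 0.262 in si-hnRNPK (0.253 to 0.272). The ratio of si-hnRNPK was the lowest of the 4, and that of si-PTBP1 was the highest. For UBA7 and UBE2L6, the E1 and E2 of the pathway, there were 0.0971 UBA7 reads per UBE2L6 read in control (0.0813 to 0.115) and 0.0858 in si-hnRNPK (0.0778 to 0.0943), intervals that overlap. The ratio was 0.116 in that labelled si-lncRNA-LBCS (0.0999 to 0.135) and 0.144 in si-PTBP1 (0.127 to 0.163), both above si-hnRNPK beyond counting error, and si-PTBP1 was also above control.

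**Figure D3:**
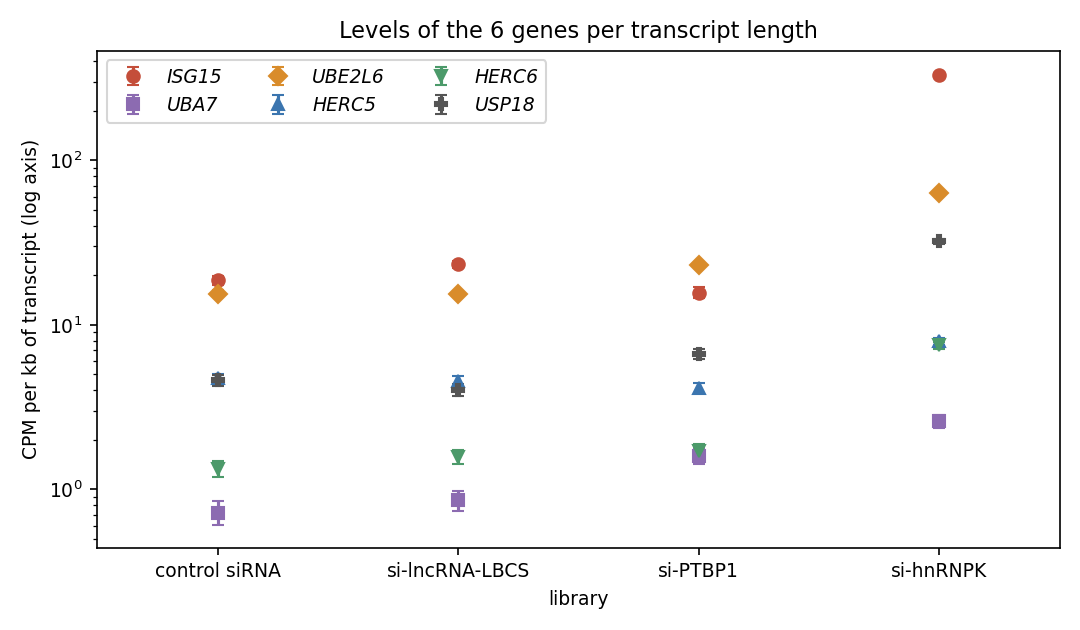
Level of the 6 genes per kb of the longest coding transcript (vertical log axis, CPM per kb) in each library, with 95% counting intervals. ISG15 is at 332 CPM per kb in si-hnRNPK and at 15.7 to 23.3 in the other libraries. UBA7 is the lowest gene in each library, at 0.716 to 2.58, though in si-PTBP1 its interval overlaps that of HERC6.

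Of 12 further genes for ligases, proteases and binding partners linked to ISG15, 11 had values, and 0 rose or fell in any library against control. Over all genes tested, 3.55% rose and 3.93% fell in si-hnRNPK, and each share was lower in the other libraries. The counts of 0 were thus near the background. The median of the 11 genes in si-hnRNPK was -0.40, against -0.11 over all genes. TRIM25, another ISG15 ligase that is itself interferon-inducible, was at 42.3 CPM in control and 60.7 CPM in si-hnRNPK, a difference of 0.51, and at 28.4 and 28.7 CPM in the other libraries. ARIH1, a further ligase, had a difference of -0.20 in si-hnRNPK. The 7 proteases on the list, USP2, USP5, USP13, USP14, USP16, USP21 and USP24, which act mainly on ubiquitin, had differences from -0.86 for USP13 to -0.02 for USP5. SKP2, which targets USP18 for degradation, was at 84.8 CPM in control and 54.3 CPM in si-hnRNPK, a difference of -0.63. ITGAL, one subunit of the receptor for secreted ISG15, was not analysed here, and its partner ITGB2 was at 8.07 and 10.4 CPM.

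Ubiquitin and several of its other relatives have conjugation enzymes of their own, while some enzymes are shared. UBA6 was listed for both ubiquitin and FAT10. Among 49 genes of the ubiquitin, NEDD8, SUMO, UFM1, URM1, ATG12 and FAT10 systems, 0 rose and 1 fell in si-hnRNPK, with a median of -0.13 against -0.11 over all genes. With 3.55% of all genes rising and 3.93% falling, these counts were near the background. The one that fell was SENP1, a SUMO protease, from 84.3 to 41.3 CPM, a log2 change of -1.01 that did not reach the threshold with median-of-ratios scaling. UBE2L3, the closest relative of UBE2L6 and an E2 for ubiquitin, was at 187 CPM in control and 141 CPM in si-hnRNPK, a difference of -0.41. UBA1, the ubiquitin E1 most like UBA7, was at 137 and 132 CPM. In the other libraries 0 of the 49 genes rose or fell, where at most 2.92% of all genes rose and at most 1.01% fell. These counts of 0 were also near the background. Of the 3 genes listed for FAT10, 2 had values, UBE2Z and UBA6. UBD, which encodes FAT10 itself, was not among them.

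**Figure D4:**
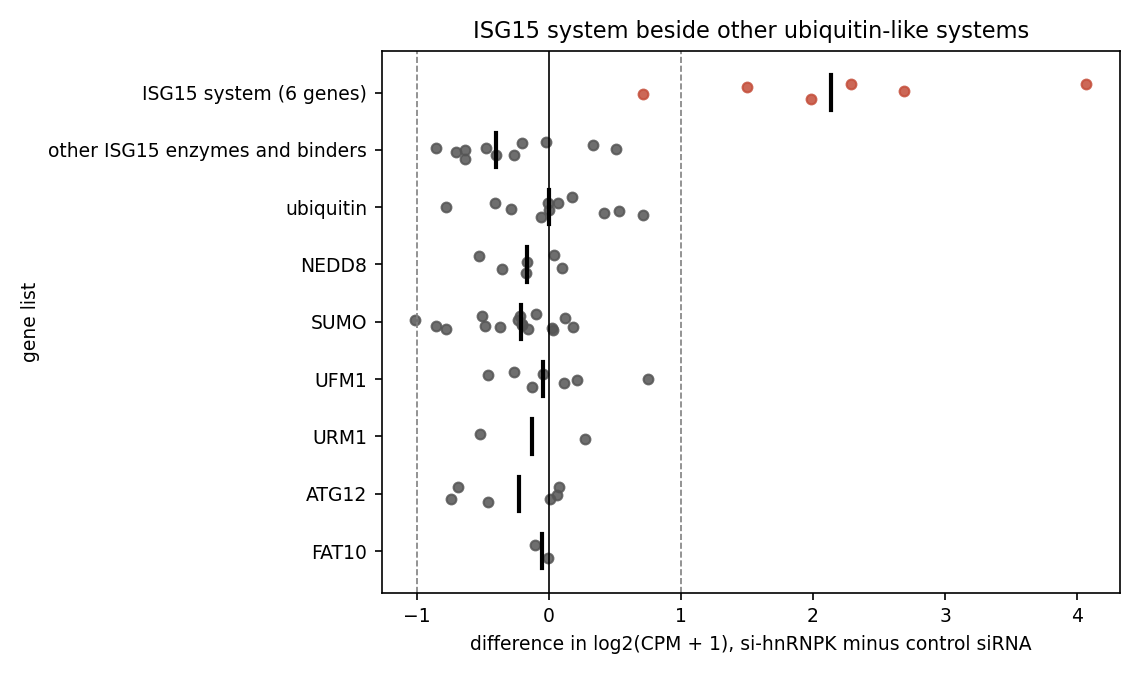
Difference in log2(CPM + 1) between si-hnRNPK and control (horizontal axis) for each gene of the ISG15 system and of the other lists, 1 point per gene, with a bar at the median of each list and dashed lines at -1 and 1. The ISG15 genes lie from 0.71 to 4.07, and no gene of the other ISG15 enzymes and binders or of the 7 other conjugation systems plotted reaches 1, while SENP1 lies at -1.01.

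The genes that drive interferon-stimulated transcription were examined beside them. Of 9 genes for the receptor, its kinases and transcription factors, 4 rose in si-hnRNPK and 0 fell, where 3.55% of all genes tested rose and 3.93% fell. In the other libraries 0 rose or fell, where at most 2.92% of all genes rose and at most 1.01% fell, counts near the background. IRF7, the amplifier of the interferon response, rose by 3.72 on the log2 scale, from 5.30 to 82.1 CPM. STAT2 and IRF9 rose by 1.84 and 1.24, and IRF1 by 1.49, and the median of the 9 genes was 0.56. The receptor subunits IFNAR1 and IFNAR2, to the second of which USP18 binds, had differences of -0.21 and 0.33. IFNB1, which encodes interferon beta, had 1 read in control, 1 in si-PTBP1 and 29 in si-hnRNPK, and was not analysed in the fourth library. Of the 21 interferon genes listed for this comparison, 5 had values and 0 reached 1 CPM.

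Among 23 genes whose proteins are known to be conjugated to ISG15, 5 rose and 1 fell in si-hnRNPK, beside 3.55% and 3.93% of all genes tested, so the count of falls was near the background. The 5 were IFIT1, DDX58, IFIH1, EIF2AK2 and TP63. The first 4 of these are themselves interferon-stimulated genes, and DDX58, which encodes the RNA sensor RIG-I, rose by 3.32, from 67.1 to 677 CPM. TP63, which is not one of them, had 21 reads in control and 136 in si-hnRNPK, and it also rose in si-PTBP1, by 1.33. CCND1, which encodes cyclin D1, was the gene that fell, from 1187 to 295 CPM. Most of the list stayed under the threshold, and its median was 0.17. TMEM173, which encodes the sensor adaptor STING, fell by 1.39, from 7.41 to 2.22 CPM, in that labelled si-lncRNA-LBCS.

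The genes most like each member over the 4 libraries were found by the Euclidean distance between their 3 differences from control, among 9459 genes that had a symbol and reached 10 CPM in some library. The 5 nearest to ISG15 were XAF1, CMPK2, OAS1, RSAD2 and IFIT1, at distances of 0.27 to 0.67. XAF1, CMPK2 and RSAD2 were under 1 CPM in every library but si-hnRNPK, so they entered the search through that library alone. The added 1 sets much of their distance. OAS1, at 4.29 CPM in control and 90.2 CPM in si-hnRNPK, was above 1 CPM in all 4. It reached 10 CPM only in si-hnRNPK, so it too entered through that library alone. IFIT1, at 19.6 and 466 CPM, was above 10 CPM in all 4. DTX3L and TAP1 were nearest to HERC6, at 0.26 and 0.31, and SAMD9L and IGFBP3 to USP18, at 0.31 and 0.34. The nearest genes to UBA7 were HSD17B14, at 0.09, and PDE1C, at 0.10, which also had values above control in si-PTBP1, by 0.98 and 0.82. UBA7 itself was under 10 CPM in all 4 libraries, so the added 1 also affects these distances. Without a pseudocount the changes of UBA7 were 1.85 in si-hnRNPK and 1.16 in si-PTBP1. UBE2L6 was nearest to SLC16A9 and HDAC9, at 0.11 and 0.17, and HERC5 to ADA and CORO1B, at 0.07 and 0.09. SLC16A9, at 2.44 CPM in control and 12.3 CPM in si-hnRNPK, also reached 10 CPM in si-hnRNPK alone.

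Of 15 white blood cell markers, 6 had values in each library, and their summed level was 4.77 CPM in control, 4.46 CPM in si-hnRNPK, 2.39 CPM in si-PTBP1 and 1.89 CPM in that labelled si-lncRNA-LBCS. ITGAM was at 0.978 CPM in control and 2.78 CPM in si-hnRNPK, while ITGAX was at 2.57 and 0.939. The leukocyte marker PTPRC and the T cell marker CD3E were not analysed here. The sum was thus no higher in si-hnRNPK than in control, and the part of such cells in the result was not tested.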

How the data were processed

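UM-UC-3 RNA was sequenced as 100-base paired-end reads, with 1 library per condition. For each library the authors deposited a table of Ensembl identifiers with CPM, the reads of a gene per 1000000 reads. The build in the submitters' processing notes is hg19; aligner, counting method, strand, annotation and filters are not given in the sources used here. Where strand is not stated, reads of overlapping antisense genes cannot be told apart. CPM values were whole multiples of 1 read for 100% of genes with reads (within 0.01 of a read), and genes at the placeholder for no reads were set to 0. The reads recovered were 61371954 for control, 54301152 for si-hnRNPK, 56064691 for si-PTBP1 and 70232674 for the label si-lncRNA-LBCS.

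Genes listed in both tables and reaching 1 CPM in either were compared as differences in log2(CPM + 1), with a threshold of 1 (2-fold). An exact binomial test of the reads (Benjamini-Hochberg q of at most 0.05), which compares 2 libraries and not the conditions, called 10870 of 13672 genes in si-hnRNPK against control. Other alternatives were a pseudocount of 0.1 or none, no filter or 5 CPM, a 1.5-fold threshold, median-of-ratios scaling and a geometric mean as the reference. Gene models are from GENCODE release 29 (GRCh38), matched by identifier, and promoters from RefSeq (GRCh38.p14). The members and lists were chosen with earlier results of these data known. Named genes are the members, the siRNA targets, the closest paralogs, genes of the lists past the threshold against control and the genes of nearest pattern; list genes under the threshold were named after their values were seen. One gene of the lists is not reported here and was left out of their counts and medians. Scripts were tested on simulated data. The software was matplotlib 3.10.9, statsmodels 0.14.6, scipy 1.17.1, pandas 2.3.3 and numpy 2.4.6 under Python 3.11.15.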

Additional observations from a re-analysis of the deposited data

How the results depend on the processing

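The count of 5 members up in si-hnRNPK against control was 5 or 6 under each alternative run for it, the 6 with a 1.5-fold threshold, which HERC5 passes. It stayed 5 with the library labelled si-lncRNA-LBCS left out of a geometric mean reference, a setting chosen after seeing the data. In si-PTBP1 the count of 0 became 1 (UBA7) with a pseudocount of 0.1, with no pseudocount, which was added later, or with a 1.5-fold threshold. Against the geometric mean of the 3 other libraries, the members' median was 1.96 in si-hnRNPK, -0.37 in si-PTBP1 and -0.76 in that labelled si-lncRNA-LBCS; for the last 2 that reference holds the si-hnRNPK library. Against it ISG15 in si-PTBP1, at -1.69, and USP18 in that labelled si-lncRNA-LBCS, at -1.23, passed the threshold downward, which neither did against control. Of 72 recomputed member changes, 65 kept their sign, and the 7 that did not were all in those 2 libraries and stayed under the threshold. For the other conjugation systems in si-hnRNPK, alternatives chosen after seeing the data gave 2 genes up and 6 down at 1.5-fold, and 0 down with median-of-ratios scaling or the geometric mean reference. No paired analysis was possible because each condition is 1 library, and for the same reason no library of a condition could be left out. Depth limits UBA7 most, with 145 reads in control, and counting intervals say nothing about the spread between cultures.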
